A study of Mus musculus with 6 samples.

Results

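The glutathione peroxidase genes Gpx1, Gpx3, Gpx4, Gpx7 and Gpx8 were followed in fetal mouse hearts after inhalation of titanium dioxide nanoparticles (nano-TiO2) by the mother. They are 5 of 35411 annotated genes to which the deposited files assign reads per transcript, were chosen by name, and all 5 were among the 13928 genes with enough reads to test. Wild type FVB/NJ dams, 14 in the study and 10 weeks old, breathed filtered air (sham) or an aerosol of nano-TiO2 with a target of 12 mg/m3. Exposure took 360 minutes a day on 6 days spread over 8 days from gestational day 5, and hearts were taken on gestational day 15. Each of the 3 sham and 3 nano-TiO2 libraries is the antibody-free input of an RNA methylation study, made from a pool of fetal hearts of both sexes. How many litters went into a pool is not given, so a p-value speaks only of the spread from pool to pool, which may be technical.

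Glutathione peroxidases reduce hydrogen peroxide and organic hydroperoxides, and most of them draw the electrons from glutathione. Gpx1 works in the cytosol and mitochondria and is abundant in red cells, Gpx3 is secreted, and Gpx4 reduces hydroperoxides within membrane lipids and so protects cells from ferroptosis, an iron-dependent death by lipid peroxidation. These enzymes carry selenocysteine in the active site, which the ribosome inserts at a UGA codon that would otherwise end translation. Gpx7 and Gpx8 sit in the endoplasmic reticulum, carry cysteine instead, and pass oxidising power from peroxide to protein disulfide isomerases. In heart, Gpx1 and Gpx4 are known for limiting peroxide damage to mitochondria, which fill much of the cardiomyocyte.

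The windows below, from the GENCODE M21 transcripts (GRCm38), show the codon that separates the selenium enzymes from the others. Each holds the active-site codon in capitals with 30 coding bases on either side, in the member's most abundant transcript. The codon was found from the annotated selenocysteine or, in Gpx7 and Gpx8, by aligning the coding sequence with that of Gpx4.
Gpx1-201: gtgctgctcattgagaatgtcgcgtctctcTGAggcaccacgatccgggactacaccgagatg
Gpx3-201: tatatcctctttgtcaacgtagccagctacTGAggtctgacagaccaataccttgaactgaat
Gpx4-202: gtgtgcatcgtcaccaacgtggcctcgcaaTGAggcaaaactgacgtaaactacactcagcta
Gpx7-201: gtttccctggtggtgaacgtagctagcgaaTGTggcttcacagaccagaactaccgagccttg
Gpx8-201: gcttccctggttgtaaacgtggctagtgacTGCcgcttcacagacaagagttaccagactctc
Counted from the start codon, the active-site codon is number 47 of 201 in Gpx1 (chromosome 9), 73 of 226 in Gpx3 (chromosome 11), 73 of 197 in Gpx4 (chromosome 10), 56 of 186 in Gpx7 (chromosome 4) and 79 of 209 in Gpx8 (chromosome 13). It lies in exon 1 of 2 in Gpx1, exon 2 of 5 in Gpx3, exon 3 of 7 in Gpx4 and exon 2 of 3 in both Gpx7 and Gpx8. Gpx7 and Gpx8 share 46 of the 63 bases of the window, and every other pair shares 27 to 35.

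The libraries held 12881945 to 22720009 estimated reads. The 14 cardiomyocyte markers were all tested and none was at 0, so the labelled tissue's markers were present. Their summed level was 55228 to 64695 CPM in sham and 39231 to 51817 CPM in nano-TiO2 without overlap (CPM are reads scaled to the library's size with TMM factors throughout). Sham 2 stood apart by haemoglobin genes (23.4% of its reads, against 5.68% to 12.4% in the others) and by hepatocyte markers (10 of 12 tested, summed level 1674 CPM against 35.6 to 152). Lung epithelial markers (4 of 7 tested) summed to 1469 CPM in nano-TiO2 3, 281 in nano-TiO2 2, 138 in sham 1 and at most 21.3 in the other 3 libraries. Over all genes, edgeR's quasi-likelihood test called 2153 higher and 1780 lower in nano-TiO2 (15.5% and 12.8%), with the median gene at a log2 fold change of -0.01. With library totals in place of TMM the split was 4269 higher and 50 lower (30.7% and 0.359%), with limma on log2(TPM + 1) it was 4531 and 16 (38% and 0.134%), and the median gene then moved to 0.41 and 0.47. Once a smooth trend over length and GC content was taken out of each library, 55 genes were higher and 168 lower (0.395% and 1.21%), and without sham 2 and nano-TiO2 3 none was, although 3350 had an unadjusted p under 0.05.

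By TPM, the deposited transcript level that adjusts for length and so allows comparison between genes, Gpx3 was the most abundant member in every library. Its level was 1429.5, 1056 and 1245 TPM in sham 1 to 3 and 1543, 2133 and 1514 TPM in nano-TiO2 1 to 3, which ranks it 91 among the 13928 genes tested. Gpx4 followed at 898, 772 and 1173 TPM in sham and 816, 828 and 889 TPM in nano-TiO2, at rank 164. The ranges of these neighbours overlapped, yet Gpx4 was below Gpx3 in all 6 libraries, at 0.388 to 0.942 of its level.

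Gpx1 stood at 592, 806 and 431 TPM in sham and 455, 553 and 501 TPM in nano-TiO2, at rank 261. It was below Gpx4 in 5 libraries and above it in sham 2, where the ratio of Gpx4 to Gpx1 was 0.957, so these neighbours did not differ beyond their spread. The endoplasmic reticulum members were much rarer. Gpx8 had 82.8, 61.0 and 109 TPM in sham and 83.1, 104 and 80.3 TPM in nano-TiO2, at rank 1352. Gpx7 had 55.8, 40.9 and 54.9 TPM in sham and 56.5, 73.1 and 60.5 TPM in nano-TiO2, at rank 1873. Gpx8 exceeded Gpx7 in every library, by 1.33 to 1.99 times. Together the 5 genes summed to 2736 to 3691 TPM, and the groups overlapped in this sum.

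Among family genes outside the 5, Gpx2 (the gut enzyme), Gpx5 (epididymal) and Gpx6 (olfactory) had 0 to 5, 0 and 0 to 1 estimated reads per library, so none could be tested. The pseudogene Gpx4-ps2, a copy that could draw reads from Gpx4, held 0 to 13.2 reads per library against 6875 to 21602 for Gpx4. Gpx8 lies inside Cdc20b on the opposite strand, and the strand setting of the counting is not given. Cdc20b held 0 to 9 estimated reads per library, against 1077 to 2323 for Gpx8.

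**Figure D1:**
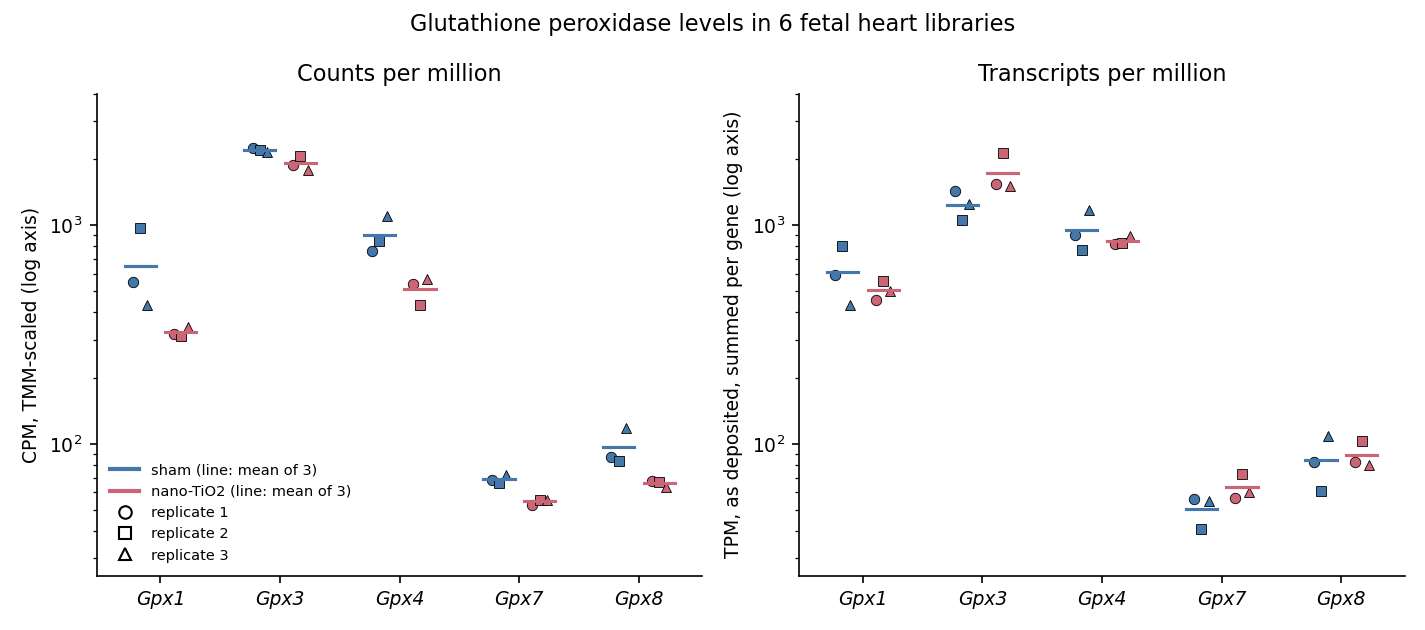
Level of each member in the 6 libraries, as CPM with TMM scaling (left) and as deposited TPM summed per gene (right), both on log axes; points are libraries and lines are group means. On the CPM scale the 3 nano-TiO2 libraries lay below the 3 sham libraries for all 5 genes, whereas on the TPM scale Gpx3 and Gpx7 lay above sham and the other 3 genes overlapped.

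Gpx1, Gpx4 and Gpx8 fell in nano-TiO2 hearts relative to the median gene, although Gpx8 itself was above 0 on log2(TPM + 1), where the median gene was higher still. Gpx3 and Gpx7 did not pass the test. The 3 lower calls and 0 higher calls among 5 members compare with 12.8% lower and 15.5% higher over all genes tested. All 5 members had CPM values that were lower in nano-TiO2 without overlap between groups, and 22.4% of the 13928 genes showed that pattern. In bulk tissue, fewer cells of a type and less RNA per cell cannot be told apart. Cardiomyocyte markers were split, with 6 of 14 called lower and 2 higher, Ryr2 and Ttn (0 lower and 3 higher with library totals). With the length and GC trend removed, 0 were lower and 2 higher, here Myl7 and Nppa, with a median of -0.07. Ryr2 and Ttn were then not called (log2 0.28 and -0.44). Their sums, given above, were lower in nano-TiO2 without overlap. The 10 macrophage markers, 9 of them tested and none at 0, summed to 140 to 171 CPM in sham and 106 to 136 CPM in nano-TiO2, again without overlap, with 1 called higher and 0 lower. The part of either cell type in the members' differences was not tested. Summed fibroblast and endothelial markers overlapped between groups. Where no tool is named, an adjusted p is from edgeR.

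Gpx1 was measured at 547, 974 and 431 CPM in sham and 320, 312 and 343 CPM in nano-TiO2. The nano-TiO2 libraries lay close together and below every sham library, while sham 2 was far above the other sham libraries. The means were 651 ± 286 and 325 ± 16.1 CPM (SD, n = 3 each), and Gpx1 fell by 1.00 ± 0.27 (SE) on the log2 scale, or 2.00-fold (edgeR adjusted p = 0.0276). Without sham 2 it was lower by 1.46-fold (log2 -0.55 ± 0.16), and the adjusted p was 0.0663.

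Leaving out any other library except sham 3 also ended the call for Gpx1, with edgeR adjusted p = 0.0528 to 0.0888, and without sham 3 it was 0.0149. Erythroid markers moved with Gpx1 in the main fit: 17 of 18 were found and tested, none was at 0, and 6 were called lower and none higher. Over all genes tested 12.8% were called lower and 15.5% higher. None of these markers was called with library totals or with the length and GC trend removed (medians -0.88 and -0.96, against -1.33 in the main fit). On log2(TPM + 1), 0 were lower and 1 higher. Their summed level was 121111 to 300237 CPM in sham and 45615 to 93424.5 CPM in nano-TiO2. Sham 2 was highest in both Gpx1 and the erythroid sum. In the other 2 sham libraries both Gpx1 and the erythroid sum (133140 and 121111 CPM) were above all 3 nano-TiO2 libraries. The part of erythroid RNA in the difference of Gpx1 was not tested.

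Gpx4 had 764, 849 and 1099 CPM in sham and 537, 429.7 and 568 CPM in nano-TiO2. The lowest sham library was well above the highest nano-TiO2 library, and sham 2 was here in the middle of its group. Means were 904 ± 174.5 and 512 ± 72.8 CPM (SD, n = 3 each), so Gpx4 fell by 0.82 ± 0.17 (SE) on the log2 scale, or 1.77-fold (edgeR adjusted p = 0.0132). Gpx4 alone among the members kept its call without each library in turn (6 of 6 fits, adjusted p = 0.0217 to 0.0466). It lost the call without sham 2 and nano-TiO2 3 together (log2 -0.91, adjusted p = 0.134), where no gene of the 14019 tested was called.

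Gpx8 had 87.1, 84.0 and 118 CPM in sham and 68.0, 67.3 and 63.4 CPM in nano-TiO2. Sham 3 was the highest library, and the nano-TiO2 libraries were tightly grouped below all sham libraries. Means were 96.5 ± 18.9 and 66.2 ± 2.50 CPM (SD, n = 3 each), and Gpx8 fell by 0.54 ± 0.15 (SE) on the log2 scale, or 1.46-fold (edgeR adjusted p = 0.0326). Without nano-TiO2 2 the call held (0.0468), and without each of the other 5 libraries in turn it was lost (0.0583 to 0.108). Without sham 3 the value fell to log2 -0.33 ± 0.13.

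Gpx7, the smaller of the endoplasmic reticulum pair in abundance, had 68.6, 66.4 and 72.1 CPM in sham and 52.8, 55.6 and 55.6 CPM in nano-TiO2. The libraries within each group differed little and the groups did not overlap. Means were 69.0 ± 2.84 and 54.7 ± 1.60 CPM (SD, n = 3 each), with a log2 fold change of -0.34 ± 0.11 (SE) that missed the threshold in edgeR (adjusted p = 0.0578) and passed it in DESeq2 (0.0290).

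Gpx3 had 2255, 2218 and 2159 CPM in sham and 1882, 2079 and 1793 CPM in nano-TiO2. Here too the groups did not overlap, but the gap between sham 3 and nano-TiO2 2 was small beside the range in nano-TiO2. Means were 2211 ± 48.6 and 1918 ± 147 CPM (SD, n = 3 each), with a log2 fold change of -0.21 ± 0.12 (SE; edgeR adjusted p = 0.220, DESeq2 0.165). It was the smallest difference of the 5.

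These directions are relative to other genes, and the scaling moved them. With library totals only, the log2 fold changes were -0.55 for Gpx1, -0.41 for Gpx4, -0.13 for Gpx8, 0.08 for Gpx7 and 0.22 for Gpx3, and none was called (2 had an unadjusted p under 0.05). On the log2(TPM + 1) scale they were -0.23, -0.15, 0.11, 0.33 and 0.47 in the same order, again with no call in limma and 1 unadjusted p under 0.05. On TPM, Gpx3 and Gpx7 were higher in nano-TiO2 without overlap, a pattern shown by 46.7% of genes tested. Set against the median gene of the same fit, Gpx1, Gpx4 and Gpx8 were below it in the main analysis and in all 23 alternatives, and Gpx3 and Gpx7 in 20 of 23. The alternatives reuse the same 6 libraries, and how many of all genes kept 1 side was not counted. With the length and GC trend removed, neither Gpx4 (0.06 below, SE 0.19) nor Gpx1 (0.27 below, SE 0.23) could be told from the median gene. The same held with the replicate block added (0.04 below, SE 0.18, for Gpx4 and 0.20 below, SE 0.21, for Gpx1).

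Transcript length and base composition moved with the difference between groups. Mean transcript lengths of the members were 931 to 1594 bases, against a median of 2723 over all genes tested. GC content was 55.6% to 58.5% in Gpx1, Gpx3, Gpx4 and Gpx7 and 43.7% in Gpx8, with a median of 50.6% over all genes. The fitted trend gave log2 -0.69 for a gene with the length and GC content of Gpx1, -0.47 for Gpx3, -0.75 for Gpx4, -0.54 for Gpx7 and 0.03 for Gpx8. With that trend removed, the log2 fold changes were -0.29 ± 0.23 for Gpx1, 0.26 ± 0.14 for Gpx3, -0.08 ± 0.19 for Gpx4, 0.20 ± 0.12 for Gpx7 and -0.54 ± 0.16 for Gpx8 (SE). None was then called by edgeR, with adjusted p = 0.0975 for Gpx8, the only member with an unadjusted p under 0.05, and 0.313 to 0.858 for the others. The value of Gpx8 thus moved by less than its SE, and that of Gpx4 was smaller than its SE once the trend was taken out.

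**Figure D2:**
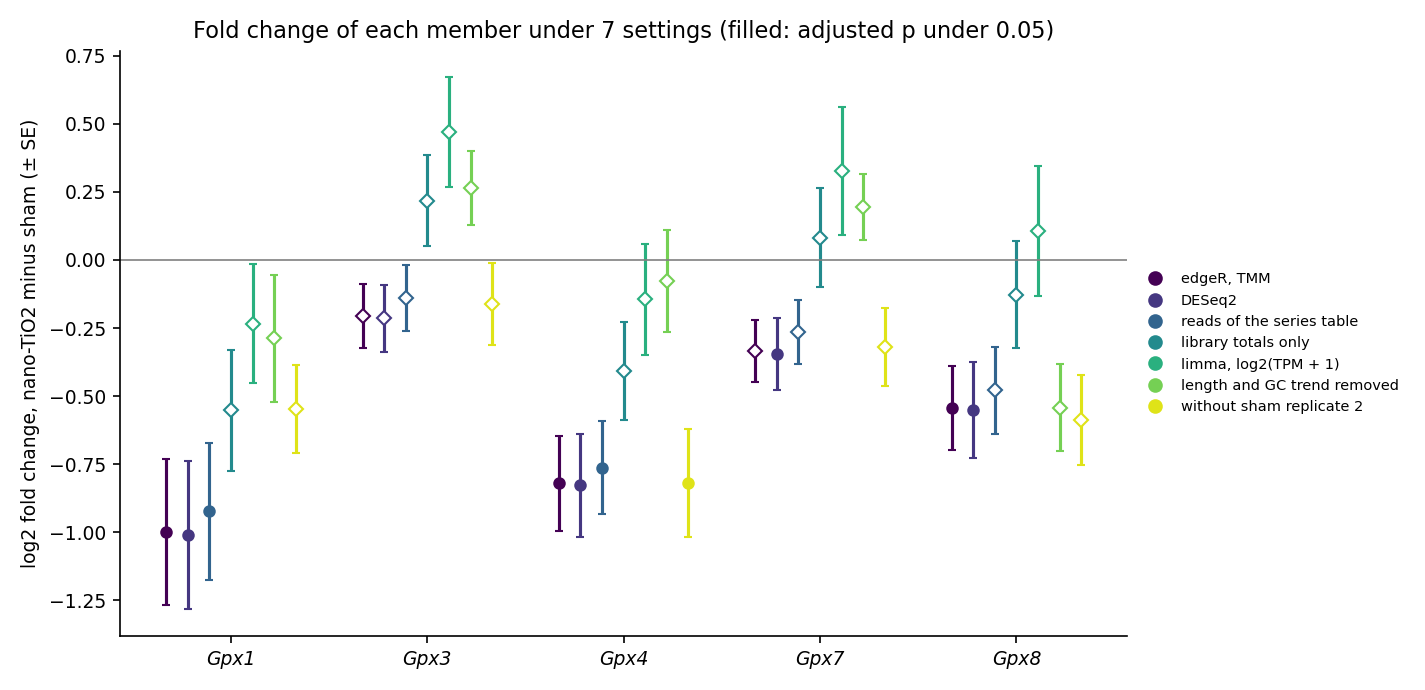
Log2 fold change of each member, nano-TiO2 minus sham, with its SE, under 7 settings; filled circles have an adjusted p under 0.05. Gpx1 and Gpx4 stayed below 0 in all 7, Gpx8 rose above 0 on log2(TPM + 1), and Gpx3 and Gpx7 were above 0 with library totals, on log2(TPM + 1) and after trend removal.

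Ratios between members within a library do not depend on the scaling of that library. They were not corrected for the length and GC trend, which differed between members. Its fitted log2 value was -0.69 for Gpx1, -0.47 for Gpx3, -0.75 for Gpx4, -0.54 for Gpx7 and 0.03 for Gpx8. The ratio of Gpx1 to Gpx3 in TPM was 0.414, 0.764 and 0.346 in sham and 0.295, 0.259 and 0.331 in nano-TiO2. The ratio of Gpx4 to Gpx3 was 0.628, 0.731 and 0.942 in sham and 0.529, 0.388 and 0.587 in nano-TiO2. Both ratios were lower in nano-TiO2 without overlap. Within the endoplasmic reticulum pair, Gpx8 to Gpx7 was 1.48, 1.49 and 1.99 in sham and 1.47, 1.42 and 1.33 in nano-TiO2. Gpx4 to Gpx1 ranged from 0.957 to 2.72 in sham and from 1.50 to 1.80 in nano-TiO2, with overlap. Of all 10 ratios, 5 did not overlap, where 33.7% of all pairs of tested genes with TPM above 0 in every library did not. The 5 ratios share members, and each was at p = 0.1 in a two-sided exact permutation test, the smallest p that 3 against 3 allows, and 0.2 after Benjamini-Hochberg adjustment. Gpx3 held 46.8%, 38.6% and 41.3% of the members' summed TPM in sham and 52.2%, 57.8% and 49.7% in nano-TiO2.

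The deposited files list 18 transcripts of the members, of which 10 had a mean of at least 10 estimated reads and the same 10 were tested; the other 8 are too rare to describe. None was called by edgeR across 30406 transcripts (adjusted p = 0.0833 to 0.528), where 7 of the 10 had an unadjusted p under 0.05. Over all transcripts 0.921% were called higher and 1.1% lower. DESeq2 called 6 of the 10 lower, namely Gpx1-201, Gpx3-201, Gpx4-202, Gpx4-207, Gpx7-201 and Gpx8-201, against 8.54% lower over all transcripts.

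Gpx4 is the member with known protein forms that differ in place. Its mitochondrial form starts at an upstream codon and carries a targeting peptide, its cytosolic form starts at a downstream codon of the same first exon, and its nuclear form uses another first exon. In the annotation, Gpx4-202 holds both the mitochondrial and the cytosolic start, 81 bases apart, shown here in capitals because they decide what the files can resolve.
Gpx4-202 coding start: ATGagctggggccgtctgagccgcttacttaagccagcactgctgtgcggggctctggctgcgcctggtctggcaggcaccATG
Gpx4-201 coding start: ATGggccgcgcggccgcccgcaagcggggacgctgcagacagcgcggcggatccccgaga
The second ATG is codon 28 in frame, so translation gives 197 codons from the first start and 170 from the second. Reads of Gpx4-202 therefore belong to either form, and the mitochondrial and cytosolic forms could not be told apart. Gpx4-201 encodes the nuclear form, of 253 codons, from the other first exon. A further coding transcript, Gpx4-207, has an annotated start downstream of both and 157 codons, and it still holds the selenocysteine codon.

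Gpx4-202 carried most of the gene's reads, with 14357, 8930.0 and 18953 estimated reads in sham and 7665, 5897 and 12635 in nano-TiO2. Its share of the reads of coding Gpx4 transcripts was 88.9%, 78.7% and 87.8% in sham and 86.6%, 85.8% and 92.0% in nano-TiO2. The groups overlapped, and the difference of 3.00 percentage points was not past the spread (two-sided exact permutation p = 0.6); without sham 2, the lowest library, it was -0.21. Gpx4-207 took up nearly all of the rest, at 10.7%, 20.7% and 11.9% in sham and 12.8%, 13.4% and 7.64% in nano-TiO2. Its own level had the largest fold among the members' transcripts, a log2 of -1.23 ± 0.30 (SE; adjusted p = 0.0833 in edgeR and 0.00146 in DESeq2). Gpx1-204 (-1.18 ± 0.54), Gpx1-202 (-1.10 ± 0.40) and Gpx1-201 (-1.02 ± 0.30) lay within that SE of it, so the order was not resolved. The nuclear form's transcript Gpx4-201 had 48.4 to 70.6 reads per library, or 0.327% to 0.830% of the coding reads. Its share overlapped between groups, with a log2 fold change of -0.49 ± 0.38 for its level (edgeR adjusted p = 0.528).

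In Gpx1 and Gpx8, alternative transcripts without the active-site codon took a sizeable part of the reads. Gpx1-202 and Gpx1-204 have annotated starts after the selenocysteine codon, and Gpx1-201, which holds it, had 87.0%, 84.0% and 86.7% of the reads of coding transcripts in sham and 84.7%, 87.4% and 87.0% in nano-TiO2. Gpx8-202 skips the exon with the cysteine codon, and Gpx8-201 had 73.1%, 66.9% and 68.6% in sham and 74.6%, 69.5% and 65.8% in nano-TiO2. Neither share separated the groups (exact permutation p = 0.5 and 0.9). Gpx7-201 held at least 99.3% of Gpx7 reads in each library and Gpx3-201 at least 99.96% of Gpx3 reads, so a single transcript stood for each of these genes.

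**Figure D3:**
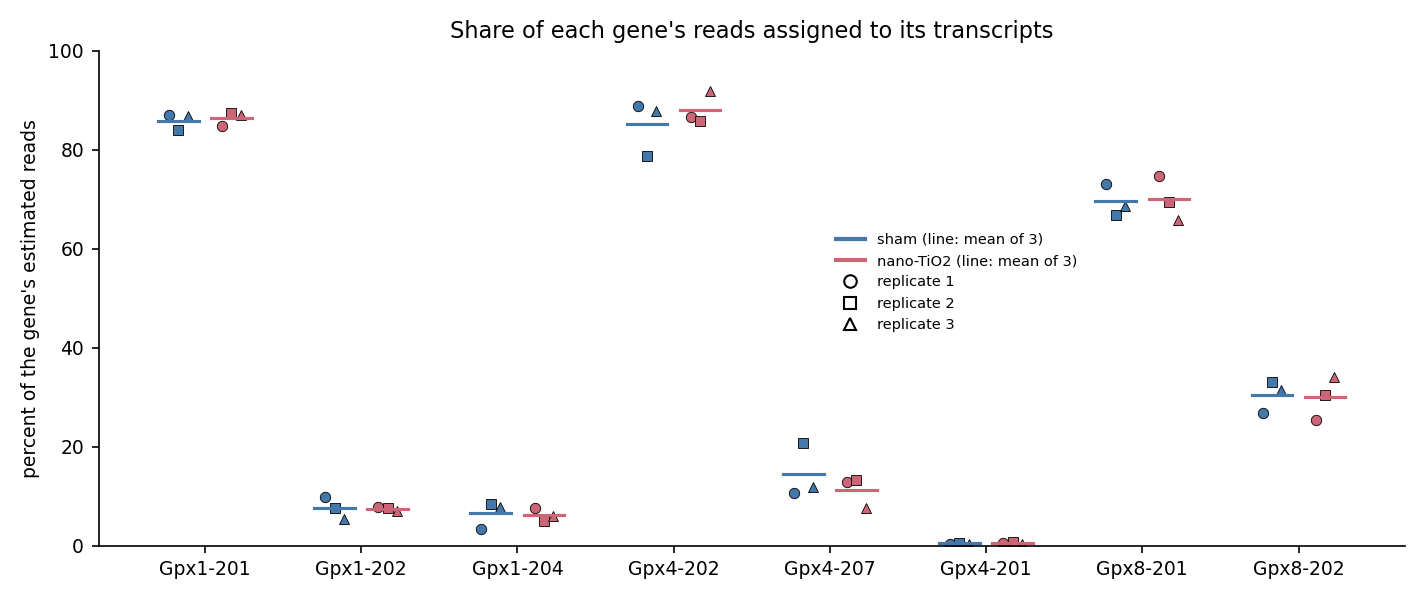
Share of a gene's estimated reads assigned to each transcript of Gpx1, Gpx4 and Gpx8 with a mean of at least 10 reads; points are libraries and lines are means of 3. The groups overlap in every share, and sham 2 has the lowest share of Gpx4-202 (78.7%) and the highest of Gpx4-207 (20.7%).

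The series table gives reads in steps of 25 bases along each gene, made by the authors separately from the transcript estimates. Summed over the gene, its reads gave log2 fold changes of -0.92 for Gpx1 (edgeR adjusted p = 0.0274), -0.76 for Gpx4 (0.0139), -0.48 for Gpx8 (0.0525), -0.26 for Gpx7 (0.123) and -0.14 for Gpx3 (0.413), that is 2 of 5 called lower against 11.2% of genes. Gpx8 thus missed the threshold in this source. Of the members' 209 bins tested by limma on log2(value + 1), 49 were called lower and 0 higher. Over all 245114 bins, 4.48% were called lower and 1.14% higher. That share rose with coverage: among bins with a mean of at least 30, 19.3% of all 89610 were lower. There 66 of the members' 164 were lower and 0 higher. Bins of the same gene are not independent of each other. At the mean of at least 10, the 49 called bins fell in few genes. All 49 lay in the 2 most affected genes, 21 of 36 bins in Gpx1 and 28 of 38 in Gpx4. None was called in the 59 bins of Gpx3, the 40 of Gpx7 or the 36 of Gpx8, where 0, 2 and 11 bins had an unadjusted p under 0.05. No member's bin was called when either of sham 1 and 2, or either of nano-TiO2 1 and 3, was left out (77 to 86 had an unadjusted p under 0.05). Hardly any bin of any gene was called in those fits: 71 and 5 without sham 1 and 2, and 0 and 61 without nano-TiO2 1 and 3. With nano-TiO2 2 left out 25 were called lower, against 4.36% of all bins. With sham 3 left out 42 were, against 3.1%.

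In Gpx1 and Gpx4 all 36 and 38 bins tested were below 0, and so were most in the other members. These were 57 of 59 in Gpx3, 36 of 40 in Gpx7 and 34 of 36 in Gpx8. In Gpx1 the median log2 difference was -0.84 in the first 12 bins tested, -0.88 in the middle 12 and -0.87 in the last 12. In Gpx4 it was -0.76, -0.78 and -0.77 in the first, middle and last bins, and in Gpx3 it was -0.17 in all of them. Gpx7 (-0.22, -0.36 and -0.25) and Gpx8 (-0.37, -0.52 and -0.37) were lowest in the middle. The median over all bins tested was -0.25, so Gpx3 lay above it, Gpx7 close to it and Gpx1 and Gpx4 well below. Single bins went up in Gpx3, Gpx7 and Gpx8, to at most 0.07, 0.55 and 0.07.

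The bins cannot place a start to within 81 bases. In Gpx1 the nearly empty stretch that stands for its intron began 81 bases before the annotated first base of the intron, and the rule that placed reads into bins is not given in the sources used here. In Gpx4 the first block of tested bins, 276 to 401 bases from the gene's start, held 9.21%, 8.24% and 9.30% of the gene's reads in sham and 10.2%, 8.60% and 8.79% in nano-TiO2. This block, which corresponds to the shared first exon of the mitochondrial and cytosolic forms, overlapped between groups (exact permutation p = 0.8). Between it and the next tested bin, the stretch from 426 to 701 held 36, 27 and 17 reads in sham and 7, 13 and 15 in nano-TiO2, of 5677 to 17978 reads in the gene. That stretch, described after its values were seen, is where the first exon of the nuclear form would fall. Its share of the gene's reads was 0.0946% to 0.283% and overlapped between groups.

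**Figure D4:**
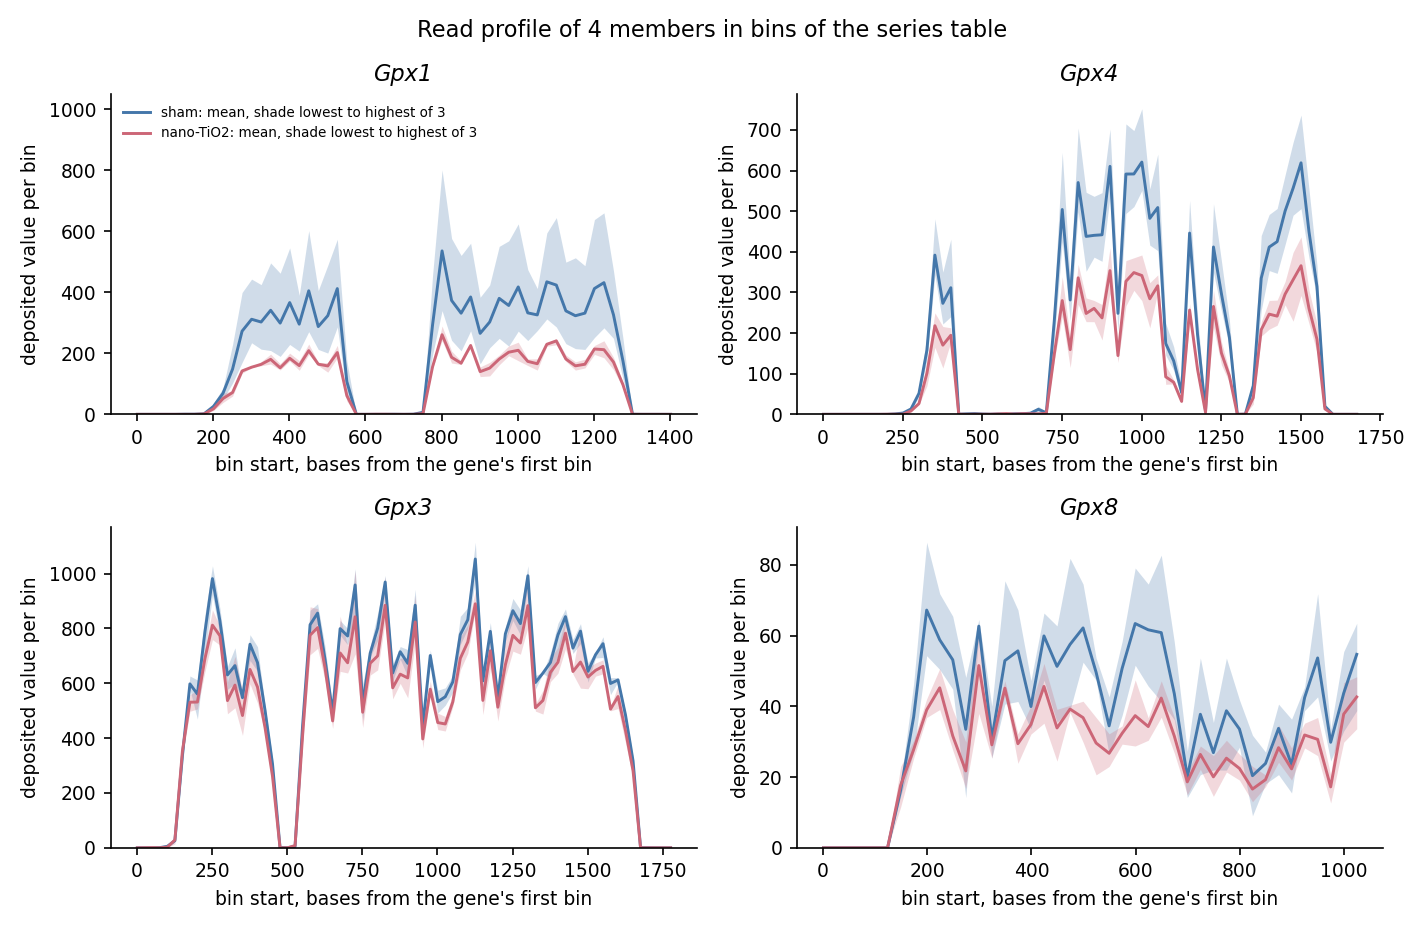
Deposited value per bin along Gpx1, Gpx4, Gpx3 and Gpx8 by distance from each gene's first bin, as the mean of 3 libraries with shading from the lowest to the highest. In Gpx1 and Gpx4 the nano-TiO2 line runs below the sham shading over nearly the whole gene, and in Gpx3 and Gpx8 the groups overlap in most bins.

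Glutathione itself is built by glutamate-cysteine ligase and glutathione synthetase and kept reduced with NADPH. The counts of this list and the related ones compare with 12.8% lower and 15.5% higher over all genes tested, with 0.359% and 30.7% from library totals, and with 0.134% and 38% on log2(TPM + 1). Of 22 genes for its synthesis, import and recycling, all tested, 8 fell and 2 rose (Gclc, the catalytic ligase subunit, and Nnt). Slc25a39, the carrier of glutathione into mitochondria, fell by 0.86 ± 0.15 (SE) on the log2 scale (edgeR adjusted p = 0.00845), and Gss, glutathione synthetase, fell by 0.59 ± 0.13 (0.0139). Nnt, a mitochondrial source of NADPH with a pair of gene entries of which the one with more reads was used, rose by 0.49 ± 0.14 (0.0364). The list's median was -0.44 in the main fit, beside -0.01 over all genes, and -0.01 and 0.21 with library totals and on log2(TPM + 1), where 0 fell and 3 and 4 rose.

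Glutathione S-transferases attach glutathione to reactive compounds. Of 23, 20 were tested, 4 fell and none rose, with a median of -0.39. With library totals none was called in either direction (median 0.02), and on log2(TPM + 1) 0 fell and 1 rose (0.23). Gstm5 fell by 0.83 ± 0.15 (SE) on the log2 scale (edgeR adjusted p = 0.00923) and Gstp1 by 0.63 ± 0.12 (0.0106).

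Other selenoproteins, which compete with the peroxidases for selenium, were mixed: of 21 genes, 17 were tested, 4 fell and 2 rose, with a median of -0.23. The counts turned round with library totals and on log2(TPM + 1), where 0 fell and 5 rose in each (medians 0.18 and 0.35). Txnrd2, the mitochondrial thioredoxin reductase, fell by 0.72 ± 0.15 (SE) on the log2 scale (edgeR adjusted p = 0.0128) and Selenom, a thioredoxin-like protein of the endoplasmic reticulum, by 0.70 ± 0.12 (0.00869). Selenot, another resident of that compartment, rose by 0.88 ± 0.27 (0.0424) and Selenoi, an ethanolamine phosphotransferase, by 0.61 ± 0.19 (0.0404). Genes that insert selenocysteine or supply selenium were also mixed, with 14 of 15 tested, 5 lower, 3 higher and a median of -0.16. With library totals and on log2(TPM + 1), 0 fell and 6 rose in each (medians 0.25 and 0.39). Secisbp2l, related to the protein that binds the selenocysteine insertion element, rose by 1.19 ± 0.22 (0.00996), and Ncl, nucleolin, by 0.65 ± 0.15 (0.0171). Rpl30, a ribosomal protein that binds that element, fell by 0.69 ± 0.11 (0.00766) and Sars, the seryl-tRNA synthetase that charges the selenocysteine tRNA, by 0.58 ± 0.14 (0.0212).

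Around Gpx4, 21 of 22 genes of lipid peroxide handling and ferroptosis were tested, of which 6 fell and 4 rose, with a median of -0.33. Every lower call was lost with library totals and on log2(TPM + 1), where 0 fell and 6 rose in each (medians 0.09 and 0.32). Acsl4, which loads membranes with oxidisable fatty acids, Nfe2l2, which encodes the antioxidant regulator NRF2, the iron exporter Slc40a1 and Vkorc1l1 rose. Nfe2l2 rose by 0.77 ± 0.15 (SE) on the log2 scale (edgeR adjusted p = 0.0117) and Vkorc1l1, a vitamin K reductase, by 0.85 ± 0.18 (0.0132). Both ferritin chains Fth1 and Ftl1, Lpcat3, Pebp1, Por and Sat1 fell, with Pebp1 at -0.64 ± 0.11 (0.00853) and Por, the electron donor of microsomal cytochromes, at -0.53 ± 0.13 (0.0222).

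The genes of oxidative folding in the endoplasmic reticulum, where Gpx7 and Gpx8 act, had more rises than falls: of 24, all tested, 9 rose and 2 fell, with a median of 0.24. With library totals 12 rose and 0 fell (median 0.65), and on log2(TPM + 1) 14 rose and 0 fell (0.79). Those that rose include both oxidases Ero1l and Ero1lb, the isomerase Pdia3 and the chaperones Hspa5, Hsp90b1 and Canx. Canx, calnexin, rose by 0.77 ± 0.13 (SE) on the log2 scale (edgeR adjusted p = 0.00853) and Tmx4, a membrane-bound thioredoxin-like protein, by 1.05 ± 0.20 (0.0102). The 2 that fell were Prdx4, the peroxiredoxin of this compartment, by 0.60 ± 0.12 (0.0117), and Vkorc1, a vitamin K reductase, by 0.48 ± 0.14 (0.0329).

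The other peroxide and superoxide removers, namely peroxiredoxins, thioredoxins, catalase and superoxide dismutases, were all tested (12 of 12), with 6 lower, 0 higher and a median of -0.49. With library totals and on log2(TPM + 1), 0 fell and 1 rose in each (medians -0.07 and 0.17). Prdx2, an abundant red cell peroxiredoxin, fell by 0.82 ± 0.16 (SE) on the log2 scale (edgeR adjusted p = 0.0112) and was highest in sham 2, as Gpx1 was, at 1470 CPM against 988 and 1142 in the other sham libraries and 637 to 715 in nano-TiO2. Txn1, cytosolic thioredoxin, fell by 0.54 ± 0.11 (0.0128).

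Few genes of these lists were called once the length and GC trend was removed. The 7 list medians then lay between -0.26 and 0.05. Over all genes that fit called 0.395% higher and 1.21% lower. In the lists 0 genes were called higher and 3 lower. The lower calls were 2 of 22 genes of glutathione synthesis and recycling and 1 of 12 peroxide and superoxide removers. Those 3, named for that reason after their values were seen, were Glrx (glutaredoxin, log2 -0.69, edgeR adjusted p = 0.0334), Slc7a11 (the cystine importer, -1.38, 0.0438) and Prdx1 (-0.96, 0.0233). Glrx and Prdx1 were also lower in the main fit, and Slc7a11 was not called there (-0.48, 0.0796).

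**Figure D5:**
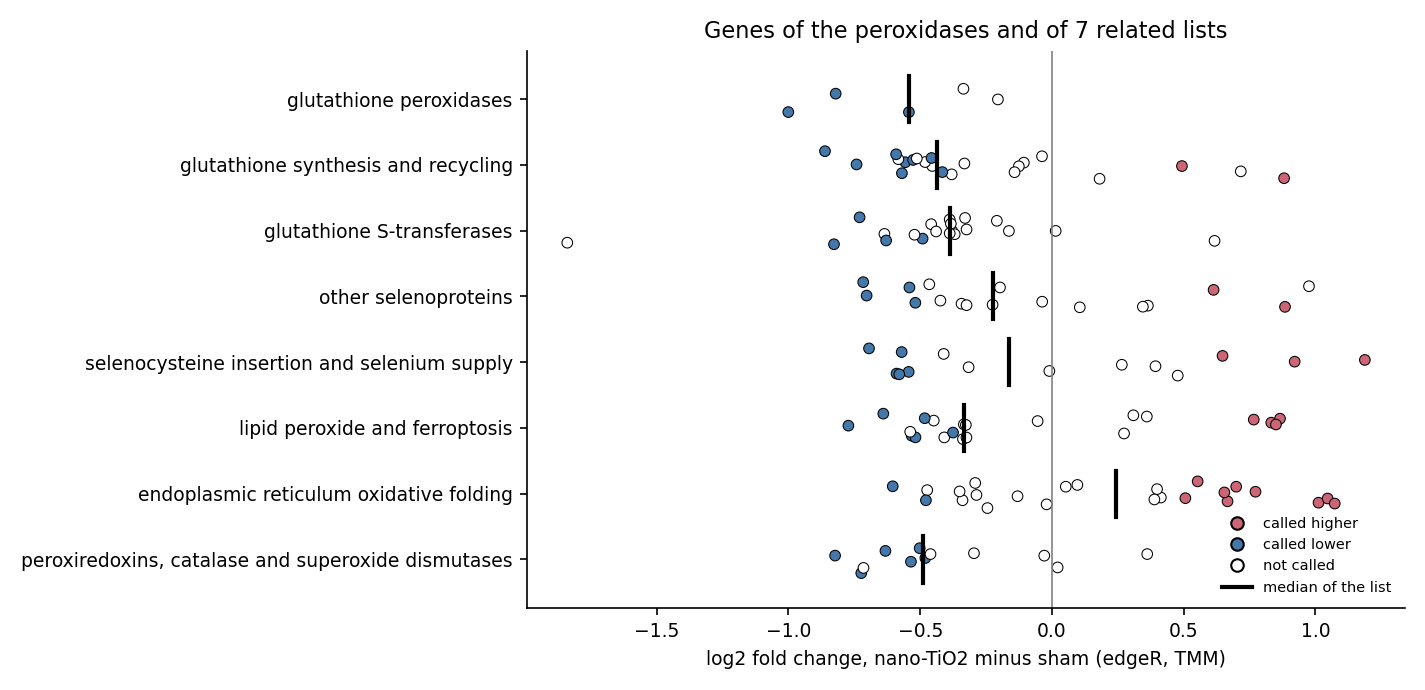
Log2 fold change, nano-TiO2 minus sham, of each tested gene in the peroxidases and 7 related lists in the main fit; blue and red points are called lower and higher, and bars are list medians. The peroxidase median is -0.54 and the oxidative folding list alone has a median above 0 in this fit, at 0.24, whereas all 7 related lists have one on log2(TPM + 1).

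The closest patterns over the 6 libraries were taken as the highest Pearson correlation of log2 CPM among 8360 protein-coding genes averaging 10 CPM or more. The libraries share the group difference and the depth, so these values only describe. For Gpx1 they were Ubtf (r = 0.998), Rhd (0.994) and Rnf10 (0.994), for Gpx4 they were Mrpl54 (0.999), Ndufc2 (0.999) and Pacsin3 (0.998), and for Gpx3 they included Ptpn23 (0.999) and Plbd2 (0.998). For Gpx7 they were Mul1 (0.999), Prss36 (0.997) and Stoml2 (0.997), and for Gpx8 they were Derl2 (0.996), Txnl4b (0.992) and Thap3 (0.992). Genes above 0.95 numbered 62 for Gpx1, 107 for Gpx8, 423 for Gpx3, 452 for Gpx4 and 453 for Gpx7, so the patterns of Gpx1 and Gpx8 were shared by fewer genes than those of the other members.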

How the data were processed

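Salmon gave estimated counts of reads per transcript, not scaled, and TPM, which relate them to effective length, per the file headers. In the series table the authors deposited a signal per bin, which is the bin's reads over a size factor of the library, and whole reads were recovered for 100% of values (tolerance 0.001). Tools named in the submitters' processing notes are Salmon 1.5.2, HISAT2 2.2.1 and DESeq2 1.34.0, with GRCm39 as build and no roles. Symbols and sequences came from GENCODE M21 (GRCm38), so no coordinates are printed. Of 116747 transcripts 115636 matched, and the others held 0.598% to 0.771% of reads.

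Reads were summed per gene, rounded, and tested with edgeR 4.0.16 (quasi-likelihood, robust, TMM, filterByExpr, group only) at a Benjamini-Hochberg adjusted p under 0.05; transcripts likewise. Bins with a mean of at least 10 were tested with limma 3.58.1. DESeq2 1.42.0, other scalings, filters, TPM, trend removal (mgcv 1.9.3), the replicate block and left-out libraries were alternatives. The tests were tested on simulated data. The planned mitochondrial-form share of Gpx4 is that of Gpx4-202, which holds both starts. Named genes are the members, their transcripts with at least 10 mean reads, and per pathway list up to 2 called genes per direction with the smallest p and at least 5 CPM. The members and lists were chosen with earlier results of these data known.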

Additional observations from a re-analysis of the deposited data

How the results depend on the processing

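Of 5 members, 3 were called lower by edgeR. No member was called on log2(TPM + 1), filtered or not, on log2(TPM + 0.1) or from library totals alone (0 each). None was called with the length and GC trend removed, or without sham 2 and nano-TiO2 3 together. Over all genes these settings called 0% to 1.21% lower. Without each library in turn 1 to 2 members were called, against 2.52% to 14.6% lower over all genes. Transcripts went from 0 to 6 lower calls with DESeq2, against 8.54% lower over all transcripts. They stayed at 0 without each library in turn, where no transcript of any gene was called. Bins went from 49 to between 0 and 42 without each library in turn, where 0% to 4.36% of all bins were called lower. The difference in the share of Gpx4-202 ranged from -0.21 (without sham 2) to 4.88 percentage points without each library in turn. Gpx3 and Gpx7 changed sign from library totals alone (0.22 and 0.082), on log2(TPM + 1) (0.47 and 0.33, filtered or not), on log2(TPM + 0.1) (0.47 and 0.33) and with the trend removed (0.26 and 0.20). Gpx8 changed sign on log2(TPM + 1), filtered or not, and on log2(TPM + 0.1) (0.11 each). The cause was not tested. No member was called higher in any of the 23 alternatives.

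The replicate numbers showed no sign of pairing the libraries. Same-numbered libraries had correlations of deviations from the group mean of -0.39, 0.02 and -0.08, and no library correlated best with its own number. Such deviations sum to 0 in each group, so the correlations constrain each other and the check cannot exclude pairing. With the replicate block, 2 members were called lower (Gpx8 had an edgeR adjusted p = 0.0746), as were 55 of their bins and 0 of their transcripts. Over all features, 5.72% of genes and 3.02% of bins were called lower, and no transcript was. The share of Gpx4-202 differed by 3.00 percentage points, and calls over all genes went from 3933 to 2058. With the block and the trend removed together, 0 members were called, with 0.26 for Gpx3 and 0.20 for Gpx7. For Gpx7 (871 to 1423 reads of the series table per library) counting error was 2.90% and 3.17% of the level in sham and nano-TiO2, close to the spread of its CPM (4.11% and 2.93%), and for Gpx8 in nano-TiO2 it was 2.97% beside 3.77%. For Gpx1, Gpx3 and Gpx4 it was at most 1.29%, below the spread in either group.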
